A study of Mus musculus with 5 samples.

Results

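A group of 7 genes of hypoxia, sugar metabolism and blood vessel growth was followed in CD45- cells of mouse melanomas grown from B16-OVA, a line carrying ovalbumin as its antigen, on the NanoString nCounter Mouse PanCancer Immune Profiling panel, which counts barcoded probes hybridized to RNA. They are Vegfa, Gpi1, G6pdx and Hif1a, set against Vegfc, Pdgfc and Thbs1, and they make up 7 of the 770 gene probes of the panel. They were selected on the comparison described here, KO against WT in these same samples, so that their differences between KO and WT are given as a description, without a test.

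KO samples (n = 2) came from tumors of Prdm1fl/flFoxP3YFP-Cre mice and WT samples (n = 3) from tumors of FoxP3YFP-Cre mice, all of the C57BL/6 strain. Both groups carried the Cre and the YFP reporter under control of Foxp3, so that the deletion of Prdm1, which encodes Blimp1, was confined by design to regulatory T (Treg) cells, and the sort on CD45- removes those cells. Mice of both groups received B16-OVA subcutaneously and NP-OVA intraperitoneally, at day 0 in complete and at day 7 in incomplete Freund's adjuvant, and tumors were taken at up to 1.5 cm3. The study's methods give an age of 5 to 10 weeks for mice in general and count the samples as mice, while the labels name samples only, so that the spread between samples, which is all that p-values here measure, may be technical.

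HIF-1 is the transcription factor through which cells respond to low oxygen, and Hif1a encodes its oxygen-regulated subunit. Its best known targets include glycolysis enzymes and Vegfa, the secreted factor that drives the sprouting of blood vessels through the receptor encoded by Kdr. Gpi1 encodes glucose-6-phosphate isomerase, the glycolytic enzyme that converts glucose-6-phosphate to fructose-6-phosphate, and G6pdx encodes glucose-6-phosphate dehydrogenase, which draws the same substrate into the pentose phosphate pathway and yields NADPH. Vegfc encodes the ligand best known for lymphatic vessel growth, Pdgfc a ligand of PDGF receptors, and Thbs1 thrombospondin 1, a matrix protein known as an inhibitor of angiogenesis.

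The promoter windows of the genes with the higher counts in KO are shown to set the position of HIF core motifs beside the expression values. Each window runs from 250 bases before to 50 after an annotated start (RefSeq, GRCm38.p6), is 300 bases long and is written 5′ to 3′ on the gene's strand. The core motif was searched as ACGTG or GCGTG on both strands, so that it can also appear as CACGT or CACGC, and matches are in capitals. The palindrome CACGTG, the E-box read by MYC and other basic helix-loop-helix factors, contains the core on both strands. The Vegfa window shown is that of the more downstream of 2 annotated starts, which lies inside the gene.
Vegfa, chr17:46025114-46025413, minus strand: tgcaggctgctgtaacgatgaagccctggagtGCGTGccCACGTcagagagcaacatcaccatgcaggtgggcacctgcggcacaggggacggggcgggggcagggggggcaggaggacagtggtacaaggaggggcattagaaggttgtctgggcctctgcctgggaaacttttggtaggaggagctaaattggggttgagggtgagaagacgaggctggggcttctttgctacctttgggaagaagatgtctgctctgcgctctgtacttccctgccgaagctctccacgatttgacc
G6pdx, chrX:74428831-74429130, minus strand: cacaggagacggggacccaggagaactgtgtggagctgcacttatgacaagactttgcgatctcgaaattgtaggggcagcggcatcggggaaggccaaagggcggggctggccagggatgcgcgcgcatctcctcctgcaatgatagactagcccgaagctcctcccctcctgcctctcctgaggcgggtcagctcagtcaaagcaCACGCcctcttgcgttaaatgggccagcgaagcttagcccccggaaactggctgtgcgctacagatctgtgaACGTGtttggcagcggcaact
Hif1a, chr12:73907617-73907916, plus strand: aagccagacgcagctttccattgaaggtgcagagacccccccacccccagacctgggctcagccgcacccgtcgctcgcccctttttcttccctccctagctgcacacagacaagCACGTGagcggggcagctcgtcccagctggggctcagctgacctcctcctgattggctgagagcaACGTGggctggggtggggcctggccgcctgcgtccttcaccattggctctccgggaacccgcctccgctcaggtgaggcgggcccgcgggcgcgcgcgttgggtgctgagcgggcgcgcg
Gpi1, chr7:34230287-34230586, minus strand: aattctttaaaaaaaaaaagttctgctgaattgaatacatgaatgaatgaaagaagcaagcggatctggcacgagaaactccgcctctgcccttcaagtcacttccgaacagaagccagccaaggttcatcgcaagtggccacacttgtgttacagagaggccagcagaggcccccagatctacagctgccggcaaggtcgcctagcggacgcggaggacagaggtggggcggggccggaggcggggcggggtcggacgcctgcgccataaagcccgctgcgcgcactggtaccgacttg
The Vegfa window held GCGTG at -218 and CACGT at -211 from the start, and the window of the upstream Vegfa start (chr17:46032328-46032627) held no match. The stretch holding both Vegfa matches reads as codons of the gene, so that they are not given as promoter sites. G6pdx held CACGC at -43 and ACGTG at 30. Hif1a held ACGTG at -70 and a CACGTG at -135, and Gpi1 held no match. Of the 7 genes, 6 were in the table, with 7 windows, of which 3 held a core, and the windows of Vegfc and Pdgfc held none. Thbs1 was not matched. Of all 32851 windows in the table, 43.8% held a core and 7.15% a CACGTG, so that a match is common and describes the letters only.

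Raw counts summed to 450207 and 461822 over the endogenous probes in KO samples and to 369515, 423472 and 412184 in WT samples, and a background of 13.1 to 17.7 counts was set for each sample from its negative controls. Since G6pdx is itself a housekeeping probe, counts were scaled by the geometric mean of the other 19 housekeeping probes, with factors of 1.14 and 1.0 in KO samples and 0.982, 0.942 and 0.949 in WT samples. A probe was fitted when it was above background in at least 2 samples, which 402 of 751 probes were, the 6 members other than Pdgfc among them. Only 5 of the 7 were above background in all 5 samples. Prdm1, Foxp3 and Ptprc, which encodes CD45, were below background throughout, with at most 10, 5 and 4 raw counts. The targeted gene therefore could not be read in the sorted cells.

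Vegfa was higher in KO. Its normalized counts were 5705 and 4828 in KO samples and 3920, 3295 and 3544 in WT samples. The groups did not overlap, and the lower KO sample was 1.23 times the highest WT sample. Means were 5267 ± 620 in KO (SD, n = 2) and 3586 ± 315 in WT (SD, n = 3), and the log2 fold change was 0.55 (SE 0.13), or 1.47-fold. The KO samples themselves differed, KO 1 being 1.18 times KO 2, about the spread of 1.19-fold among WT samples.

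The enzymes at the branch point of glucose-6-phosphate were both higher in KO, by a like amount. Gpi1 had 30757 and 37400 normalized counts in KO samples and 24784, 22341 and 22472 in WT samples. The groups did not overlap, and WT 2 and WT 3 were nearly equal while KO 2 stood 1.22 times above KO 1. Means were 34079 ± 4697 in KO (SD, n = 2) and 23199 ± 1374 in WT (SD, n = 3), and the log2 fold change was 0.55 (SE 0.13). G6pdx had 2453 and 2984 normalized counts in KO samples and 1810, 2053 and 1662 in WT samples. Again the groups did not overlap and KO 2 was the higher KO sample, here too by 1.22-fold. Means were 2718 ± 376 in KO (SD, n = 2) and 1842 ± 198 in WT (SD, n = 3), and the log2 fold change was 0.56 (SE 0.15), or 1.48-fold. In raw counts the ratio of Gpi1 to G6pdx was 12.54 and 12.53 in KO samples, within the 10.88 to 13.69 of WT samples. The size of the gap between the KO samples depended on the scale for both genes. Raw counts in KO 1 and KO 2 were 35010 and 37399 for Gpi1 and 2792 and 2984 for G6pdx. Scaling by the positive controls gave 34818.5 and 36315 for Gpi1 and 2777 and 2898 for G6pdx.

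Hif1a differed less. Its normalized counts were 4943 and 5724 in KO samples and 4354, 4451 and 4554 in WT samples. The WT samples lay within 1.05-fold of each other, both KO samples were above them, and the lower KO sample exceeded the highest WT sample by 1.09-fold. Means were 5334 ± 552 in KO (SD, n = 2) and 4453 ± 100.0 in WT (SD, n = 3), and the log2 fold change was 0.26 (SE 0.11), or 1.20-fold. With this scaling the log2 fold change was 0.15 without KO 2 and 0.36 without KO 1. The gap between the KO samples depended on the scale. Their raw counts were 5627 in KO 1 and 5724 in KO 2, and scaling by the positive controls gave 5596 and 5558.

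Of the genes set against these, Vegfc was lower in KO. It had 220.5 and 236.0 normalized counts in KO samples and 278.0, 312.0 and 292.8 in WT samples. Every WT sample was above both KO samples, the lowest WT sample by 1.18-fold over the higher KO sample. Means were 228 ± 10.96 in KO (SD, n = 2) and 294 ± 17.1 in WT (SD, n = 3), and the log2 fold change was -0.37 (SE 0.14). Thbs1 was near background, with 33 and 17 raw counts in KO samples and 36, 54 and 25 in WT samples. The KO 2 count was under that sample's background of 17.7, the highest count was that of WT 2, and the groups overlapped. Its normalized means were 23.0 ± 8.48 in KO (SD, n = 2) and 40.1 ± 15.8 in WT (SD, n = 3), with a log2 fold change of -0.79 (SE 0.44) that was -1.23 without KO 1, -0.47 without KO 2 and -0.44 without WT 2. The exact Poisson interval (95%) was 9.90 to 27.2 for the 17 counts of KO 2 and 40.6 to 70.5 for the 54 of WT 2, which covers counting error only. Pdgfc had 9 and 4 raw counts in KO samples and 8, 8 and 5 in WT samples, below background in every sample, so that a difference was not detectable at this depth.

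**Figure D1:**
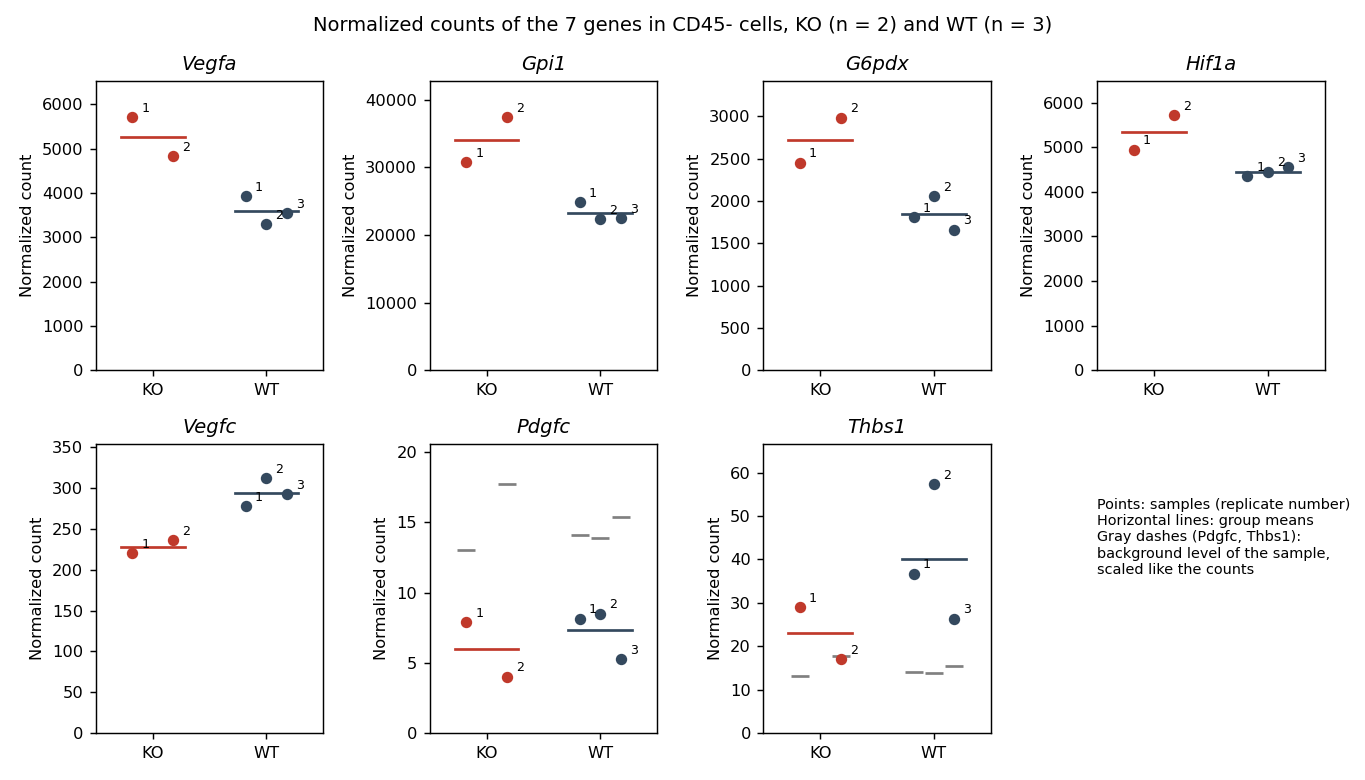
Normalized counts (y axes, from 0, each gene on its own scale) of the 7 genes in KO (n = 2, left) and WT (n = 3, right) samples, with points numbered by replicate, group means as lines and, for Pdgfc and Thbs1, each sample's background as gray dashes. Both KO points of Vegfa, Gpi1, G6pdx and Hif1a lie above the 3 WT points, those of Vegfc lie below them, and Pdgfc lies under background throughout.

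Thus the groups did not overlap for 4 members higher in KO and 1 lower. Over all 402 probes fitted, 10.7% were higher in KO without overlap and 11.4% lower, and since the members were selected on this contrast nothing is read from their share. With edgeR's quasi-likelihood test, 0% of the 402 probes passed an adjusted p of 0.05, while 3.23% were higher in KO and 2.74% lower in KO at an unadjusted p under 0.05, 13 and 11 probes. DESeq2 called 2 probes at the adjusted threshold, Mcam and Relb, neither of them a member, and limma called 0. Ranked by log2 fold change, G6pdx, Gpi1, Vegfa and Hif1a were 25th, 27th, 28th and 58th from the top, and Thbs1 and Vegfc 25th and 68th from the bottom.

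The higher and lower members were also set against each other within each sample, as ratios of raw counts that need no scaling. Vegfa over Vegfc was 25.9 and 20.5 in KO samples and 14.1, 10.6 and 12.1 in WT samples, 1.89-fold higher in KO by geometric means. Over Vegfc, Gpi1 was at 139 and 158 in KO samples and 89.2, 71.6 and 76.7 in WT samples, and G6pdx at 11.1 and 12.6 in KO samples and 6.51, 6.58 and 5.68 in WT samples. The 3 ratios were thus of like size between KO and WT, 1.89-, 1.89- and 1.90-fold, and that of Hif1a over Vegfc was smaller, 1.54-fold. Ratios over Thbs1, which had few counts, spread more widely. Vegfa over Thbs1 was 197 and 284 in KO samples and 107, 57.5 and 135 in WT samples, and Hif1a over Thbs1, at 171 and 337 in KO samples and 119, 77.7 and 173 in WT samples, was the ratio whose groups overlapped. Of the 8 ratios between the sets, 7 did not overlap. The same was true of 22.7% of the 80601 ratios between any pair of fitted probes in either direction, and as the members were selected on this contrast nothing is read from their count. Ratios over Pdgfc were not formed because it was below background.

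**Figure D2:**
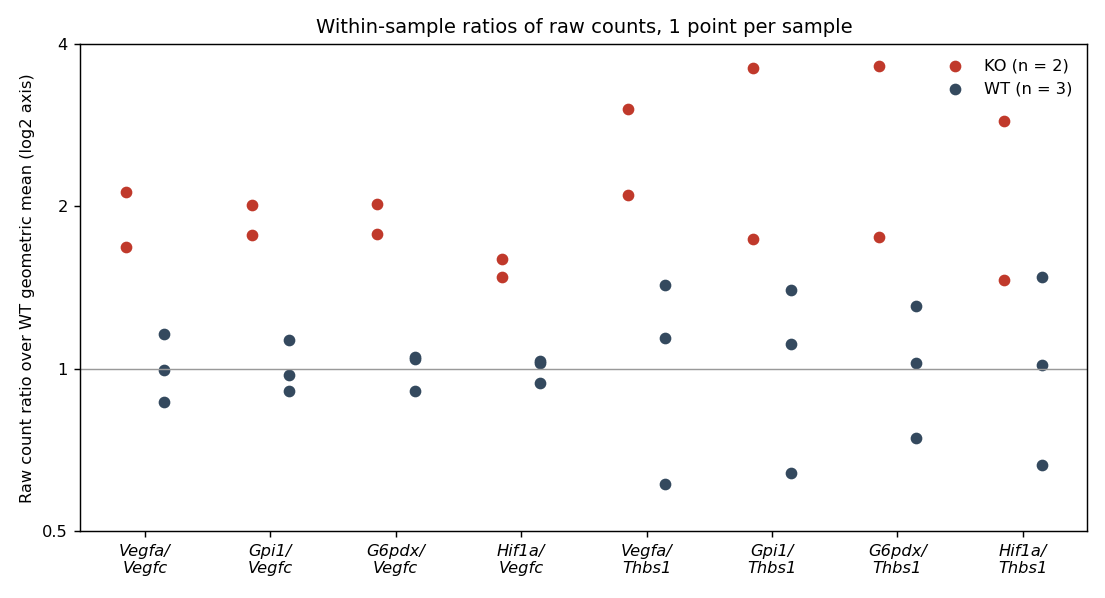
Ratio of raw counts in each sample, divided by the WT geometric mean of that ratio (y axis, log2 scale), for each of Vegfa, Gpi1, G6pdx and Hif1a over Vegfc (left) and over Thbs1 (right), with KO points left of WT points. The 4 ratios over Vegfc separate KO from WT by 1.54- to 1.90-fold, and the ratios over Thbs1 are more scattered, Hif1a over Thbs1 overlapping.

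Among the 4 genes higher in KO, the ratios of Vegfa, Gpi1 and G6pdx to each other were the same in KO and WT to within 1% by geometric means (0.993 to 1.002), while those of Gpi1 and G6pdx to Hif1a were 1.22- and 1.23-fold higher in KO. Gpi1 over Hif1a was 6.22 and 6.53 in KO samples and 5.69, 5.02 and 4.93 in WT samples. G6pdx over Hif1a was 0.496 and 0.521 in KO samples and 0.416, 0.461 and 0.365 in WT samples. These 2 of the 6 ratios did not overlap, both higher in KO, beside the 22.7% of all pairs of fitted probes. Vegfa over Hif1a was higher in KO by the same 1.23-fold, but its groups overlapped, with 1.15 and 0.843 in KO samples and 0.900, 0.740 and 0.778 in WT samples. Vegfa over Gpi1 spanned the WT range instead, with 0.185 in KO 1 and 0.129 in KO 2 against 0.147 to 0.158 in WT samples. Vegfa was therefore not distributed over the samples as the enzymes were, its highest sample being KO 1 and theirs KO 2.

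Likeness over the 5 samples was measured as the root mean square difference of log2 profiles, each centered on its own mean, and is a description only. The scaling of a sample cancels in this difference. As the members were selected on KO against WT in these samples, nothing is read from how near or far they lie from each other. Gpi1 and G6pdx were the closest pair of members at 0.118 and Gpi1 and Thbs1 the farthest at 0.818, with Vegfa and Gpi1 at 0.169. Outside the members, the nearest probes to Vegfa were Lcp1 (0.108), which encodes an actin-bundling protein, and the kinase Map3k1 (0.128). Lcp1 (0.096) and the integrin subunit Itgb3 (0.095) were nearest to Gpi1, and the chemokine Ccl9 (0.074) and the NAD-consuming enzyme Cd38 (0.090) to G6pdx. Hif1a lay nearest to Tollip (0.024), an adaptor of Toll-like receptor signaling, which had 1327 and 1595 normalized counts in KO samples and 1181, 1232 and 1280 in WT samples, and next to Mfge8 (0.047), a secreted glycoprotein that binds phosphatidylserine. The transcription factors Maf (0.084) and Smad3 (0.085) were nearest to Vegfc. Thbs1 ran closest to the cytokine Csf1 (0.083), with 338 and 197 normalized counts in KO samples and 493, 679 and 334 in WT samples, and to the chemokine Ccl2 (0.181).

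G6pdx lay above the other probes of its own class, which is a description only, since it was selected on this contrast. The other 19 housekeeping probes had log2 fold changes between -0.29 (Polr1b, an RNA polymerase I subunit) and 0.26 (Hprt, a purine salvage enzyme), with a median of -0.0023, 9 higher and 10 lower in KO. G6pdx lay 0.30 above Hprt, at 0.56. Sdha, a subunit of succinate dehydrogenase, averaged 1470 ± 57.4 normalized counts in KO (SD, n = 2) and 1480 ± 149 in WT (SD, n = 3), and Gusb, a lysosomal glycosidase, 777 ± 79.7 in KO (SD, n = 2) and 948 ± 35.7 in WT (SD, n = 3). The groups did not overlap for 5 of the 19 probes higher in KO, Hprt among them, and for 1 lower, Gusb. As these 19 probes set the scale, their center near 0 is given by construction. Gapdh was not matched on the panel.

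**Figure D3:**
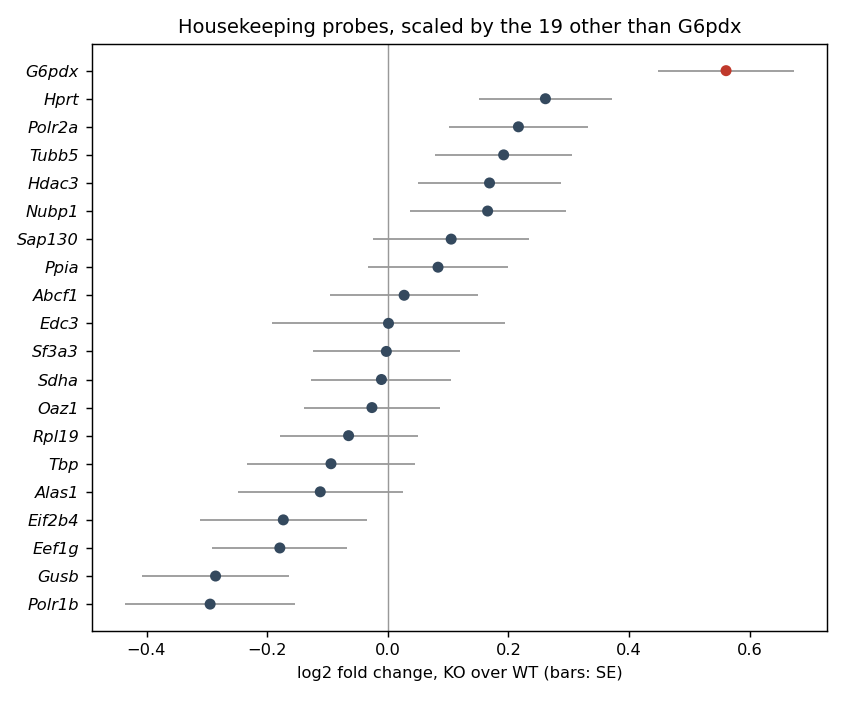
Log2 fold change of KO over WT (x axis) with its SE (bars) for each of the 20 housekeeping probes, scaled by the 19 other than G6pdx and fitted among themselves, so that the SE of G6pdx is smaller here than in the fit over all probes. G6pdx (red) is at 0.56 and the others lie between -0.29 and 0.26.

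The signs of the 6 measured members did not depend on the scale chosen. Under 7 scalings of the counts, the deposited signal among them, Vegfa, Gpi1, G6pdx and Hif1a stayed higher in KO without overlap, Vegfc stayed lower without overlap, and Thbs1 overlapped. With the total endogenous count as the scale, the Vegfa groups barely separated, at 4413 in KO 2 against 4399 in WT 1. Over 14 alternatives each, including every sample left out in turn, all 84 log2 fold changes kept their sign, with 0.43 to 0.68 for Vegfa, 0.41 to 0.69 for Gpi1, 0.41 to 0.70 for G6pdx and -0.42 to -0.25 for Vegfc. For a member whose groups do not overlap, leaving out 1 sample cannot change the sign, so that nothing is read from those signs. Scaling by the positive controls alone moved the median log2 fold change of all fitted probes by 0.11, to 0.07 against -0.04 with the housekeeping probes, and raised the members with it. Relative to that median, Vegfa was at 0.60 with the positive controls and at 0.59 with the housekeeping probes, and Hif1a at 0.30 with either.

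**Figure D4:**
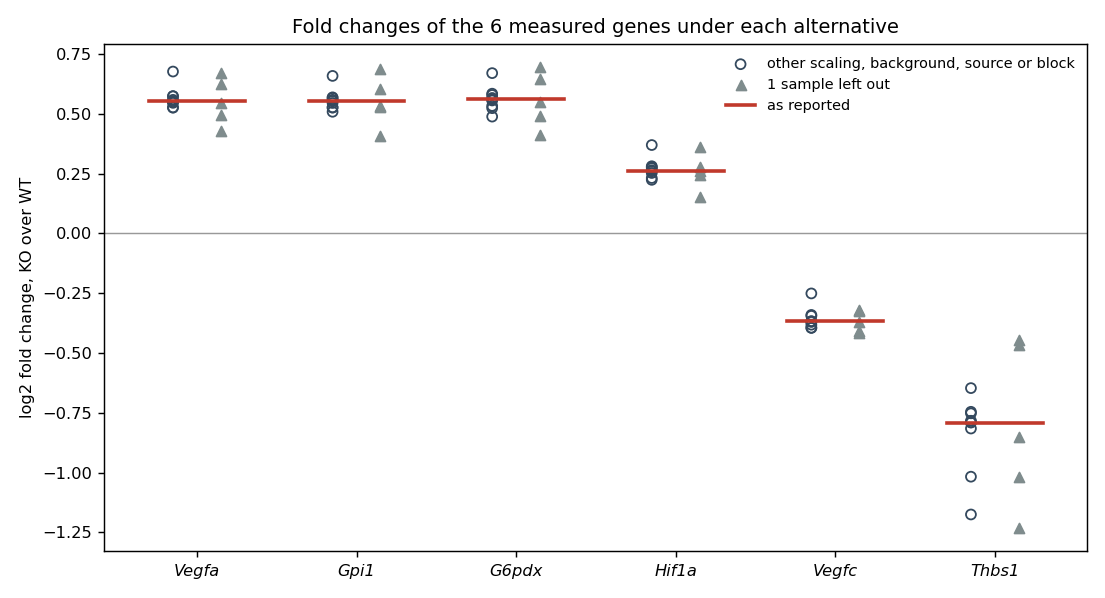
Log2 fold change of KO over WT (y axis) for the 6 measured members under each alternative: as reported (red lines), with another scaling, background, source or a replicate block (open circles), and with 1 sample left out (triangles). Each of the 84 values keeps the sign of the reported one, which leaving out 1 sample cannot change where groups do not overlap. Thbs1 is the most scattered, between -1.23 and -0.44.

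The other listed hypoxia and angiogenesis genes that were fitted did not move one way. The panel covers these pathways only in part. Of 34 other hypoxia response genes listed, 14 were on it, and Slc2a1, Car9, Ldha and Pgk1 were not among them. Of 23 listed enzymes of sugar and energy metabolism, 2 were on it, Sdha and Gusb. Of 28 other pathway probes fitted, 13 had a higher mean in KO and 15 a lower one, with a median log2 fold change of -0.01, beside -0.04 over all 402 probes. With edgeR, none passed the adjusted threshold (smallest adjusted p = 0.510), while 3 were higher and 1 lower at an unadjusted p under 0.05, and DESeq2 called Mcam alone of them.

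Among 10 of 14 other hypoxia response probes that were fitted, 6 had a higher mean in KO and 4 a lower one, with a median log2 fold change of 0.12. The groups did not overlap for 4 of them higher in KO, Cdkn1a among these, and for 1 lower, Lgals3. Over all 402 probes fitted the shares were 10.7% and 11.4%. As the list was chosen with earlier results of these data known, nothing is read from these counts. Vhl, the ubiquitin ligase subunit that marks HIF-1α for degradation, had 189 and 215 normalized counts in KO samples and 150, 149 and 165 in WT samples, with log2 fold change 0.39 (SE 0.16) and an edgeR adjusted p of 0.727. Its groups did not overlap, nor did those of Mif, a cytokine gene induced in hypoxia, with 30197 and 30417 in KO samples and 27896, 26250 and 25639 in WT samples. Cdkn1a, the cell cycle inhibitor p21, had 2388 and 3985 normalized counts in KO samples and 1658, 2135 and 2065 in WT samples, with log2 fold change 0.71 (SE 0.25) and an edgeR adjusted p of 0.727. Lgals3, a galectin, ran the other way at 830 and 803 in KO samples and 1312, 1179 and 2439 in WT samples, with log2 fold change -1.01 (SE 0.36) and an edgeR adjusted p of 0.727. The list's median was 0.01 without WT 2 and 0.24 with the positive controls, so that its size depended on 1 sample and on the scale.

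Of 16 fitted angiogenesis regulators out of 21 on the panel, 7 had a higher mean in KO and 9 a lower one (median log2 fold change -0.01, which lay on either side of 0 with 1 sample left out, from -0.04 without KO 2 to 0.06 without KO 1, and was 0.10 with the positive controls). Mcam, a melanoma adhesion molecule that is also a co-receptor on vessels, had 2694 and 2643 normalized counts in KO samples and 1708, 1907 and 1642 in WT samples, with log2 fold change 0.61 (SE 0.11) and an edgeR adjusted p of 0.510. Itgb3, the integrin subunit of the vitronectin receptor, had 131 and 170.0 in KO samples and 108, 88.1 and 85.3 in WT samples, with log2 fold change 0.68 (SE 0.22) and an edgeR adjusted p of 0.709. Both were without overlap and passed the unadjusted threshold. Itgb1, another integrin subunit, had 9182 and 9958 normalized counts in KO samples and 8591, 8033 and 8331 in WT samples. Cd36, a thrombospondin receptor, was near background at 15 raw counts in both KO samples and 19, 20 and 16 in WT samples.

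Of the receptors and partners of the ligands, Nrp1, a VEGF co-receptor, had 652 and 641 normalized counts in KO samples and 673, 676 and 654 in WT samples, a log2 fold change of -0.05 (SE 0.10). Pdgfrb, a PDGF receptor, had 61.5 and 55.0 in KO samples and 52.9, 56.2 and 47.4 in WT samples, and Kdr had at most 5 raw counts. Of 14 endothelial probes, 4 were fitted and all 4 had a lower mean in KO, their median log2 fold change being -0.30, which was -0.18 without KO 2 and -0.15 with the positive controls. They were Icam2, Eng, Angpt2, which encodes a TIE2 ligand, and Vwf, and the groups of each overlapped. Icam2 had 299 and 206 normalized counts in KO samples and 271, 367 and 350 in WT samples, and Angpt2 had 426 and 280.0 in KO samples and 396, 417 and 411 in WT samples.

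**Figure D5:**
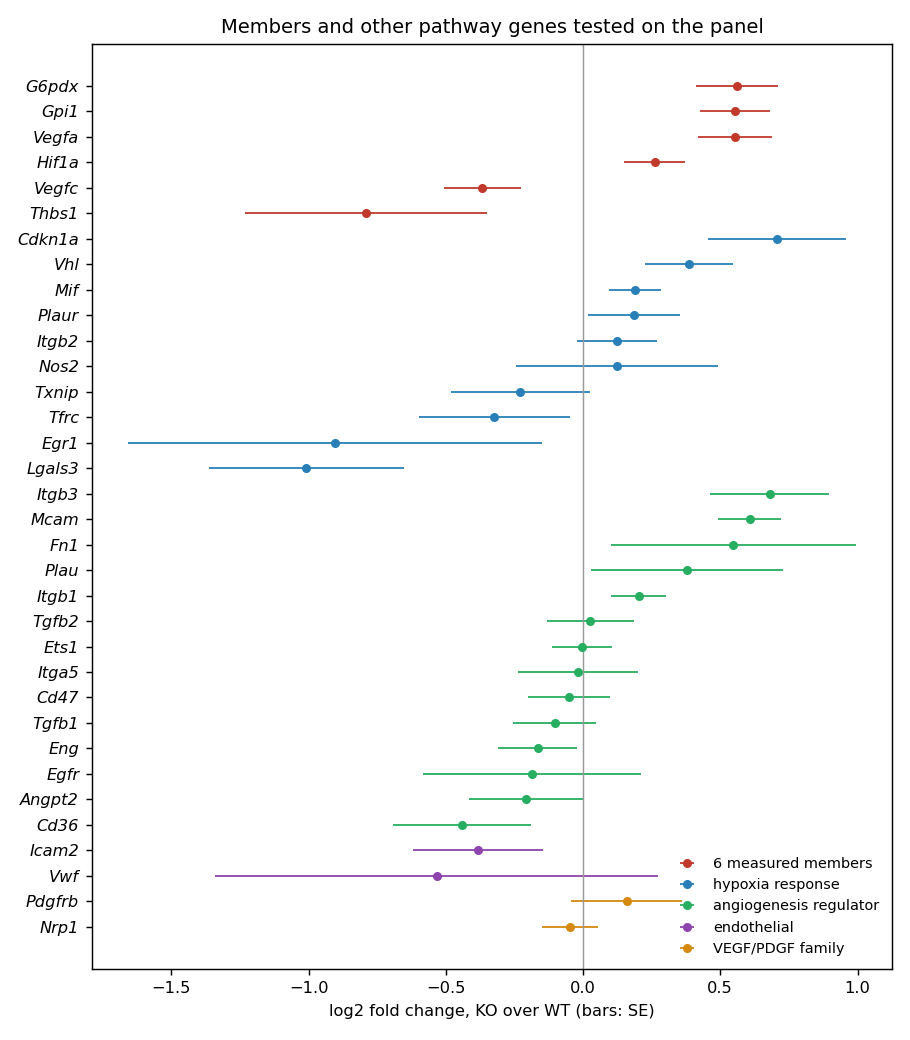
Log2 fold change of KO over WT (x axis) with its SE (bars) for the 6 measured members (red) and the 28 other pathway probes fitted, each drawn once under the first of its lists. The members at the top lie between -0.79 and 0.56, and the other probes spread to both sides of 0 around a median of -0.01.

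The cell types behind these counts can be read only in part. In bulk samples, fewer cells of a type and less RNA per cell cannot be told apart. Defining endothelial markers were below background in every sample, Pecam1 at up to 5, Cdh5 at up to 8 and Tek at up to 5 raw counts. In all, 9 of 14 endothelial probes were never above background. The 14 probes summed to 1536 to 1700 normalized counts in KO samples and 1724 to 2052 in WT samples, most of it Eng. Eng had 910 and 967 in KO samples and 1001, 1203 and 953 in WT samples, with overlapping groups. Of the melanocyte markers listed, the panel held only S100b and Mcam, with sums of 4425 to 4517 in KO samples and 3507 to 3884 in WT samples. Mcam is also found on vessels, so that this sum is not specific to melanocytes. The higher sum in KO was that of Mcam alone, since S100b had 1731 and 1874 normalized counts in KO samples and 1957, 1977 and 1865 in WT samples, a lower mean in KO with overlapping groups. Fibroblast markers summed to 1409 to 1452 in KO samples and 553 to 1590 in WT samples, almost all of it Fn1, which encodes fibronectin. Without Fn1 the sums were 173 and 97.0 in KO samples and 138, 239 and 106 in WT samples, and the collagen genes Col1a1 and Col3a1 had lower means in KO, 21.9 and 27.7 normalized counts, than in WT, 32.9 and 53.5, with overlapping groups. Of 24 leukocyte markers, 15 were never above background. Among them, Emr1 (F4/80) had exactly 1 count in every sample, as Angpt1 did, under the mean of the negative controls. Nothing is read from that value. The 24 markers summed to 2094 and 6673 in KO samples and 709, 3987 and 1483 in WT samples, most of it Cd74. Without Cd74, which nonimmune cells also express, the sums were 414 and 432 in KO samples and 296, 433 and 269.7 in WT samples. Of the 5 leukocyte markers fitted, 3 had a higher mean in KO and 2 a lower one. Cd68, a macrophage marker, was higher in KO without overlap, at 278 and 249 raw counts in KO samples and 137, 197 and 120 in WT samples. The groups of the other fitted markers of the list overlapped. Cd74 and Lyz2 had higher means in KO, and Fcgr1 and Cd3d lower ones. Lyz2 had 42 and 39 raw counts in KO samples and 28, 44 and 11 in WT samples. Fcgr1 had 11 and 17 in KO samples and 14, 20 and 18 in WT samples, a lower mean in KO. The part of Cd68 in the differences of Vegfa, Gpi1, G6pdx and Hif1a was not tested.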

How the data were processed

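RNA (100 ng) of CD45- cells from 2 KO and 3 WT samples was counted on the nCounter panel. The authors deposited raw counts for 784 probes (750 endogenous, 20 housekeeping, 8 negative and 6 positive controls), with nothing subtracted or scaled. The authors also deposited a normalized signal, made in nSolver per the study's methods, which equaled the raw count times 1 factor per sample (0.842 and 0.959 in KO, 0.981, 1.04 and 0.996 in WT) with a lowest value of 15. Which reference genes gave these factors is not given in the sources used here, and the signal was used only as an alternative. The members, the pathway and marker lists and the tests were chosen with earlier results of these data known.

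Background was the mean plus 2 SDs of the negative controls, per sample. Probes above it in at least 2 samples were fitted with edgeR 4.0.16 in R 4.3.3 (quasi-likelihood test, both groups, no covariate, library sizes set by the 19 housekeeping probes other than G6pdx, Benjamini-Hochberg adjustment over 402 probes). SEs of log2 fold changes come from this fit and SDs from normalized counts. Non-overlap means that every sample of one group lies above every sample of the other. Named pathway probes were those past the adjusted threshold and up to 4 of smallest p per list. The 2 nearest probes per member were named by likeness. Alternatives were other scalings, background subtraction, filters, DESeq2 1.42.0, limma 3.58.1 on log2 values with a pseudocount of 1, the test of the study's methods on the same values, each sample left out and a replicate block. The script for the fit was tested on simulated counts.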

Additional observations from a re-analysis of the deposited data

How the results depend on the processing

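All 84 member values kept their sign, although leaving out 1 sample cannot change it for members without overlap. Some values moved by more than the spread between samples. The log2 fold change of Gpi1 was 0.41 to 0.69 with 1 sample left out (0.41 without KO 2, 0.69 without KO 1), and that of Hif1a was 0.15 to 0.36 with 1 sample left out and 0.37 with the positive controls alone. That of Vegfc was -0.25 with the positive controls. The cause of these shifts was not tested. The count of probes past the adjusted threshold was 2 with the DESeq2 Wald test and 0 in every other alternative. At an unadjusted p under 0.05 there were 24 probes with edgeR, 10 to 45 with 1 sample left out (10 without KO 2, 45 without WT 1), and 18 to 35 under the other alternatives. With the positive controls these split into 25 higher and 4 lower in KO, against 13 and 11 with the housekeeping probes. With 1 sample left out, a lone KO sample was assumed to vary like the WT samples.

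Replicate numbers in the labels are not said to pair samples, and with 2 shared numbers the correlations of deviations (0.29 and 0.0003) do not show that they do. With the replicate number as a block, 18 probes passed the unadjusted threshold and 0 the adjusted one, Vegfa was at 0.55 and G6pdx at 0.49. The scaling without G6pdx and Sdha left the counts of calls as they were.

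With 2 KO samples the precision is set by their number, and Thbs1 and Pdgfc are limited by counts at or under background.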
